A study of Mus musculus with 16 samples.

Results

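The 35 genes described here are the mouse counterparts of genes that are recurrently mutated in human myeloid leukaemia. They were chosen by name, not by any measured value, though earlier results of these data were known. Their loci, each gene span with 20 kb on either side, held 273 of the 122020 union regions of open chromatin in the series. A union region is a stretch in which the peaks of 1 or more of the 8 peak lists overlap. Of the 35 genes, 34 had at least 1 union region in their window (1 to 20 each, median 8), and no region fell into the windows of more than 1 of them. The remaining gene, Men1, lies in a 646 kb stretch that holds 13 gene spans and no peak in the lists used here, and its locus is not analysed here.

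ATAC-seq, which maps open chromatin by letting the transposase Tn5 insert adapters into accessible DNA, was run on haematopoietic progenitors that the labels also call MPP. All mice were 21 days old. In set 1 the groups were wild type, Flt3-ITD, Runx1-het and the double mutant Flt3-ITD/Runx1-het. Flt3-ITD is a tandem duplication inside Flt3, a growth factor receptor, and Runx1-het mice are heterozygous for the blood transcription factor Runx1. Set 2 held a second wild type and a second Flt3-ITD group, NUP98-HOXD13 (a leukaemia fusion gene) and the double mutant NUP98-HOXD13/Flt3-ITD. The sets are told apart by the sample titles only, and the labels leave unsaid what separates them, what drives the fusion gene, whether Flt3-ITD sits on 1 or both alleles, or how many animals each sample holds. Each of the 8 groups had 2 samples but 1 pooled peak list, so no value below has a replicate error, read depth is unknown, and no test between genotypes was possible. Intervals given below are exact binomial (Clopper-Pearson) 95% intervals that cover counting over regions only. In bulk samples such as these, fewer open cells and less signal per cell cannot be told apart.

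Myeloid leukaemia usually needs several cooperating mutations. Some switch on growth signalling, as Flt3-ITD or mutant Nras do, and others hit proteins that write, read or erase marks on chromatin and DNA, hold chromosome loops together, or splice RNA. Mutations in genes of the chromatin group are often found already in otherwise normal blood stem cells, before the disease. Most of these genes are used in nearly every cell type and have promoters rich in CpG. An open promoter in ATAC-seq shows that the DNA is accessible, which is not a measure of how much RNA is made.

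The lists held 84080 (set 2 Flt3-ITD) to 138514 peaks (set 2 wild type). The short set 2 Flt3-ITD list lacked 9 of the 18 regions at these loci that were present in exactly 7 lists, so it is given beside each result it touches. Of all union regions, 10.13% were present in exactly 7 lists, and 5.596% were missing from this list only. The 9 of 18 are thus not read as a feature of these loci. As a check of the cell type, 7 of 8 progenitor markers had a promoter region in every list (Ly6a had none), and 0 of 4 T cell markers did in any. Between 0 and 2 of 4 B cell markers had a promoter region, depending on the list. The other lists of markers were not empty: 3 of 4 erythroid genes, 2 to 3 of 4 neutrophil and monocyte genes and 2 to 3 of 4 genes of stroma, endothelium and liver had one. Whether other cells contributed to the results was not tested.

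Promoter sequences are shown for 5 genes. They were picked by the percentile of −log10 p defined below. By its median over the lists, Nup98 and Asxl2 had the strongest promoter peaks among the 35. Nf1 had the weakest of those whose start is in the RefSeq table. Kmt2d was both weak and the most variable over the lists, and Ptpn11 had the next widest range with a start in that table. By fold enrichment the order differed. Idh1 (18.9 to 27.1) was above Nup98 and Asxl2 in every list, and Tet1 (6.82 to 8.88) was below Nf1. Each sequence runs 5′ to 3′ on the strand of the gene, from 250 bases before to 50 bases after the transcription start in RefSeq GRCm38.p6, the build of the peaks. The positions are chr7:102210117-102210416 on the minus strand (Nup98), chr12:3426607-3426906 on the plus strand (Asxl2), chr11:79339642-79339941 on the plus strand (Nf1), chr15:98871156-98871455 on the minus strand (Kmt2d) and chr5:121191348-121191647 on the minus strand (Ptpn11). Capitals mark letters that match a searched motif on either strand.
Nup98: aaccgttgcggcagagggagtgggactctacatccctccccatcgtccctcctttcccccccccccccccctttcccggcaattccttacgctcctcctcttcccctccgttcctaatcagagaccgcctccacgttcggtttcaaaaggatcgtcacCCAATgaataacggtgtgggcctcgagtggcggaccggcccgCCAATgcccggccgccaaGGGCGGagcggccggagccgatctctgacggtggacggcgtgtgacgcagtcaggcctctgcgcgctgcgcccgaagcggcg
Asxl2: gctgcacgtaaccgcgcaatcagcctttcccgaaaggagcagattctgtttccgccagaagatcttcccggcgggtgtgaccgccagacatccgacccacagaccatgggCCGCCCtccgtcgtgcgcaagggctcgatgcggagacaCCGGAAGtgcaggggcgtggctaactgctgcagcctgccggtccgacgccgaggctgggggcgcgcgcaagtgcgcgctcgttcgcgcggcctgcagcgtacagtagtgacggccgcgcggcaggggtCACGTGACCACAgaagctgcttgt
Nf1: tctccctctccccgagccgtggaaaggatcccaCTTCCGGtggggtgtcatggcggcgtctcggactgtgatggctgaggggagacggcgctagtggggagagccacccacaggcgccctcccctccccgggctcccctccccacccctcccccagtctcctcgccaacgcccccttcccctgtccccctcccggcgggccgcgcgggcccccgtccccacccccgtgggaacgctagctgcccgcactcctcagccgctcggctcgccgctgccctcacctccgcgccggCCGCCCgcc
Kmt2d: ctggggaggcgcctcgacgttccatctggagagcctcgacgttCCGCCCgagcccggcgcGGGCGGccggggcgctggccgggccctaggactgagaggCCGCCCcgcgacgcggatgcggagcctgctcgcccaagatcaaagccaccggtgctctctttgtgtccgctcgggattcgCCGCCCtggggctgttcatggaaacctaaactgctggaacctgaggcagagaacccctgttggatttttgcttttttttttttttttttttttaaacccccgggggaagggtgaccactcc
Ptpn11: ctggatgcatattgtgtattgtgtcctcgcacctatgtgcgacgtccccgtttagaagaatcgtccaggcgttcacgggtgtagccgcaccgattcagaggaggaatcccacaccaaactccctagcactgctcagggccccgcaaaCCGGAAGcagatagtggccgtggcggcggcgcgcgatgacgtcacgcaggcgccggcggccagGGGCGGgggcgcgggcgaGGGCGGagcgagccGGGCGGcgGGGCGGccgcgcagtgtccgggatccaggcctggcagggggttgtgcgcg

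Letters of 7 motifs were searched on both strands. The GC box (GGGCGG) occurred in 27 of the 31 promoters of these genes that are in the table, and in 46.3% of all 17491 promoters of the same length. Of the 10393 promoters in the table with an open region in all 8 lists, called constant promoters below, 65.9% held it. The CCAAT box, with those letters, occurred in 11 of 31 against 39.0% of all and 38.7% of constant promoters. An ETS core (CCGGAAG) was in 5 of 31 (Asxl1, Ptpn11, Dot1l, Nf1 and Asxl2) against 11.9% of all and 17.7% of constant promoters. The RUNX letters (TGTGGT) were in 3 (Asxl1, Ezh2 and Asxl2) against 15.1% of all and 12.2% of constant promoters. GATA letters (AGATAA) were in 2 of 31 in 9.96% of all and in 5.99% of constant promoters. The TATA box (TATAAA) was in 2 of 31 (6.45%), in 13.3% of all and in 6.80% of constant promoters. The E-box (CACGTG) was in 3 of 31 (9.68%), in 7.90% of all and in 10.4% of constant promoters. In Asxl2 it lies directly before the RUNX match, without shared letters. Apart from the GC box, the shares among these genes lay near those of constant promoters. The 31 promoters had a median of 32 CpG in 300 bases, against 13 over all promoters and 21 over those open in all 8 lists. Over 30 of these genes, which share the same 8 lists, Spearman's rho between CpG number and the median peak percentile defined below was 0.066, given as a description. A match of letters is a description, not a binding site.

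The promoters of these genes were open in every genotype. A promoter region was a union region within 1 kb of a transcription start, and 33 of the genes had one in all 8 lists, where 59.4% of 17491 protein-coding genes with a listed start did. The exception among the 34 was Rad21, the cohesin subunit cleaved when sister chromatids part, whose start is not in the table. No region lay within 1 kb of either end of its span, but a region inside the span, chr15:51990952-51992294, was present in all 8 lists with a −log10 p of 111 to 446. For 3 other genes without a listed start (Npm1, Wt1 and Nsd1) the ends of the span stood in for it. The promoter regions of 4 genes are also within 1 kb of the start of a neighbour and cannot be assigned to either: Idh1 with Pikfyve, Trp53 with Wrap53, Srsf2 with Mfsd11, and Nup98 with Pgap2.

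Away from promoters the loci varied much more. Of the 273 regions, 118 (43.2%, interval 37.3% to 49.3%) were present in all 8 lists, where 34.1% of all union regions and 36.7% of those within 20 kb of a protein-coding gene were. For promoter regions the number was 39 of 44, or 88.6% (74.3% of all promoter regions), and for distal regions 79 of 229, or 34.5% (30% of all distal regions near genes). These 2 distal shares are of unlike sets. The 229 include 29 promoters of neighbours, 21 of them in all lists, whereas the 30% leaves out every promoter region of a gene with a listed start. No excess is read from them. Regions inside the span of the gene itself, outside its promoter, were the least shared class, with 21 of 92 (22.8%) in all lists. Regions between genes followed with 21 of 70, then regions inside a neighbouring gene with 16 of 38, while 21 of 29 promoters of neighbours were in every list. The same classes were not counted over all genes, so their order is not read as a feature of these loci. At the other end, 50 regions (18.3%) were found in 1 list only, against 18.9% of all union regions. Without the set 2 Flt3-ITD list, an alternative chosen after seeing the data, 46.5% of the regions were in all of the other 7 lists, where 39.7% of all union regions were. Just inside the edge of the window, 15 to 20 kb from a span, 14 of 25 regions were in all 8 lists, and just outside it, at 20 to 25 kb, 7 of 29 were.

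**Figure D1:**
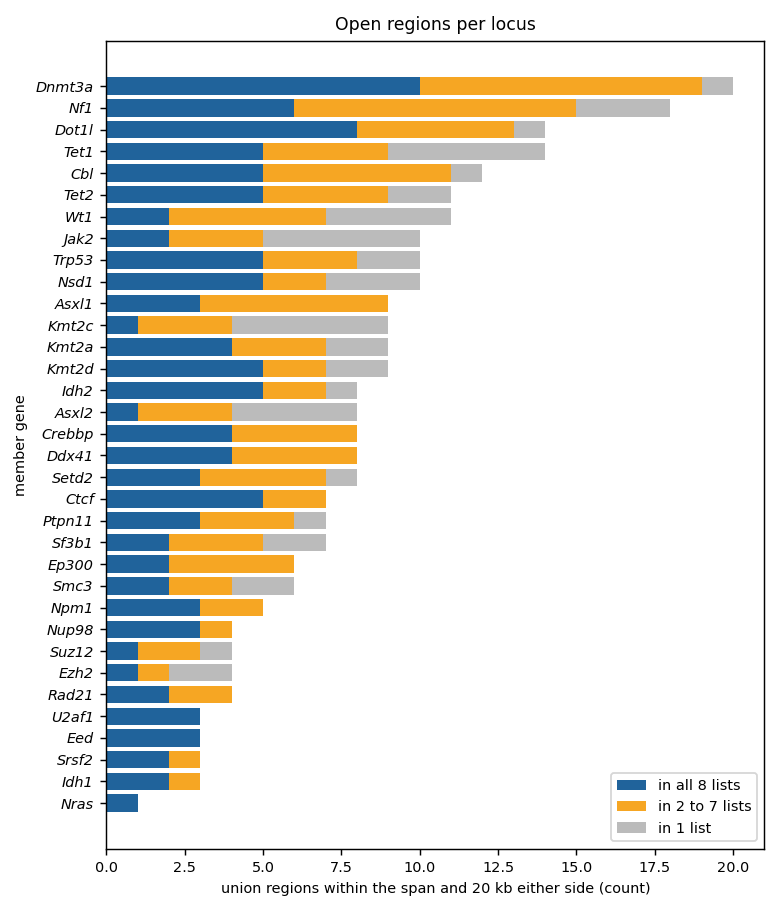
Number of union regions per gene within its span and 20 kb on either side, split into regions present in all 8 lists (blue), in 2 to 7 lists (orange) and in 1 list (grey). Dnmt3a has the most regions (20) and Nras the fewest (1); Men1 is not shown.

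Fold enrichment and −log10 p are the values that the authors' peak caller gave to a peak, and they describe it within its own list. The percentile used below is the rank of a −log10 p among all peaks of the same list, with 100 as the strongest. Taking the best percentile of each region over the lists, regions present in all 8 lists had a median of 89.8, and regions missing from at least 1 list had a median of 37.6. The same medians over all union regions were 86.9 and 42.7. A weak peak is more easily missed by the caller in some list, so the split itself favours this order and nothing is read from it. Of the 155 variable regions, 3 (1.94%) reached the 75th percentile in any list, against 5.93% of all such regions, and they were 1 each at the Tet2, Setd2 and Dot1l loci, described below.

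The best promoter peak of the 33 genes had a median percentile of 91.8 (interquartile range 89.2 to 96.1), and the 10393 genes with a promoter open in all lists also had a median of 91.8 (82.3 to 96.8). Over the 8 lists the percentile of a gene ranged by a median of 6.88 points, against 8.68 for all such genes. Ranks from lists of unequal length show no change between genotypes, so percentiles among the 84080 strongest peaks of each list, called equal numbers below, are given where genotypes are set side by side.

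**Figure D2:**
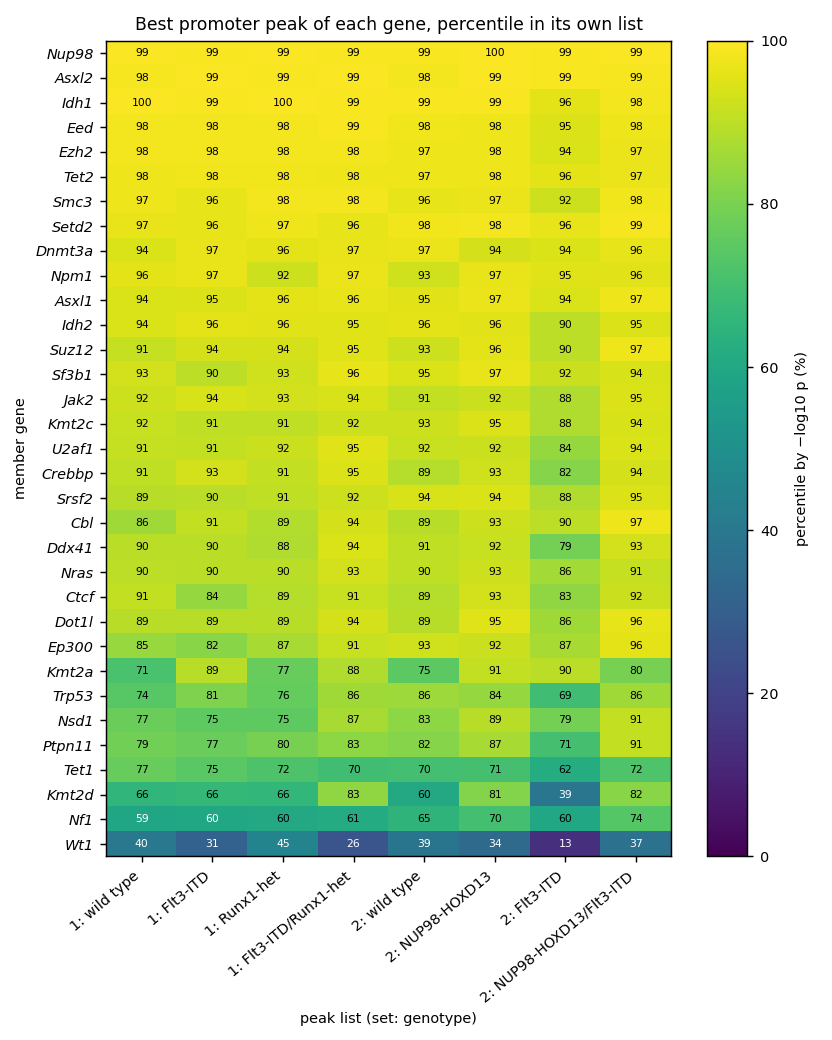
Percentile of the best promoter peak of each gene (rows, ordered by the median) within each of the 8 peak lists (columns), on a colour scale from 0 to 100. Nup98, Asxl2 and Idh1 are each among the highest 4 in every list, and Wt1 is the lowest row, between 13.4 and 45.2.

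DNA methylation is set by Dnmt3a, which methylates DNA anew, removed through the dioxygenases Tet1 and Tet2, and disturbed by mutant Idh1 and Idh2, whose product inhibits the Tet enzymes. These 5 loci held 56 regions, 27 of them in all 8 lists (48.2%, against 34.1% of all union regions). Dnmt3a had the largest number of any gene, 20 regions with 10 in all lists, among them 3 promoter regions over its 3 listed starts. An intragenic region, chr12:3855658-3856504, had a −log10 p of 409 in set 1 wild type, 449 in Flt3-ITD, 413 in Runx1-het and 335 in Flt3-ITD/Runx1-het. In set 2 it was 772 in wild type, 382 in NUP98-HOXD13, 121 in Flt3-ITD and 466 in NUP98-HOXD13/Flt3-ITD. It was stronger than the best Dnmt3a promoter peak in 7 of the 8 lists, the exception being Flt3-ITD/Runx1-het (promoter 358). A Dnmt3a flank region, chr12:3917519-3918287, was in 6 lists at 14.2 to 53.3 and missing from set 1 Flt3-ITD and the double mutant, but was present in both Flt3-ITD lists of set 2.

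Tet2 had 11 regions, 5 of them in all lists, and its main promoter region lay at the 95.9 to 98.0 percentile. A smaller region at the edge of its promoter window, chr3:133543184-133543401, was listed in set 1 Flt3-ITD (19.8) and the double mutant (10.3) but in neither other list of set 1, and in set 2 in wild type (38.4), NUP98-HOXD13 (9.4) and NUP98-HOXD13/Flt3-ITD (13.3). It was thus tied to Flt3-ITD in set 1 and not in set 2. Inside Tet2, 65259 bp past the start, chr3:133478728-133479536 was missing only from NUP98-HOXD13. Its −log10 p was 58.9 in set 1 wild type, 72.9 in Flt3-ITD, 41.4 in Runx1-het and 85.1 in Flt3-ITD/Runx1-het, and in set 2 it was 82.8 in wild type, 25.05 in Flt3-ITD and 20.5 in NUP98-HOXD13/Flt3-ITD. The double mutant, which also carries the fusion gene, kept the peak.

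Tet1 held 14 regions, and its promoter was one of the weaker ones (fold enrichment 6.82 to 8.88, percentile 61.8 to 76.8). The strongest region in its window belonged to the promoter of Ccar1, at 94.2 to 638. An intragenic Tet1 region, chr10:62865103-62865966, exceeded the Tet1 promoter in every list, with 157, 140, 158 and 172 in wild type, Flt3-ITD, Runx1-het and the double mutant of set 1, and 221, 107, 34.4 and 89.8 in wild type, NUP98-HOXD13, Flt3-ITD and the double mutant of set 2. Idh1 had 2 strong promoter regions over its 2 listed starts, present in all lists, and a weaker one (chr1:65179932-65180156) in wild type (17.2), Runx1-het (15.9) and the double mutant (20.3) of set 1 only. Its best promoter peak lay at the 96.1 to 99.5 percentile. Idh2 had 8 regions with 5 in all lists, and a promoter at the 89.9 to 96.1 percentile.

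Polycomb repressive complex 2 places a repressive methyl mark on histone H3 through Ezh2, with Suz12 and Eed as core partners, and Asxl1 and Asxl2 act in the complex that removes ubiquitin from histone H2A. Their promoters were among the strongest of the set, with a median percentile of 97.8 over the 5 genes, and 9 of their 28 regions (32.1%, against 34.1% of all union regions) were in all lists. Asxl2 had its strong promoter as its 1 constant region. Its main promoter region lay at the 98.2 to 99.4 percentile in every list, with a fold enrichment of 13.9 to 18.1, and its other 7 regions were each missing from at least 1 list. Ezh2 and Suz12 were alike in this, each with 1 constant region, the promoter, out of 4. Eed was the opposite, with all 3 regions in all lists, the promoter at the 94.7 to 99.1 percentile.

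Asxl1 had 9 regions with 3 in all lists, and 3 that followed a mutation, a term explained below. In set 2, chr2:153371945-153372167 was in NUP98-HOXD13 (9.0) and NUP98-HOXD13/Flt3-ITD (10.8) and in no other list of the 8. In the same set chr2:153338227-153338726 was in wild type (51.9) and Flt3-ITD (7.2) and in neither list with the fusion gene. The third, chr2:153333865-153334289, was in wild type (18.6) and NUP98-HOXD13 (23.5) and in neither Flt3-ITD list of set 2. All 3 were below the 60th percentile wherever they were found.

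Among the histone methyltransferases, Kmt2a, Kmt2c and Kmt2d methylate the lysine of histone H3 that is marked at promoters and enhancers, Setd2 and Nsd1 one that is marked along transcribed genes, and Dot1l one in the core of the nucleosome. The start region of Kmt2a, chr9:44880887-44881867, had a −log10 p of 58.5 in wild type, 170 in Flt3-ITD, 88.4 in Runx1-het and 162 in Flt3-ITD/Runx1-het of set 1. In set 2 it was 101 in wild type, 162 in NUP98-HOXD13, 63.3 in Flt3-ITD and 78.1 in NUP98-HOXD13/Flt3-ITD. In wild type of set 1 the other of the 2 Kmt2a promoter regions was stronger, at 69.4. The percentiles and fold enrichments that follow are the best over both regions. With equal numbers of peaks, the percentile of the best Kmt2a promoter peak in set 1 was 61.5 in wild type, 83.9 in Flt3-ITD, 64.4 in Runx1-het and 82.6 in Flt3-ITD/Runx1-het. Both lists with Flt3-ITD were above both lists without it. In set 2 the percentile was 58.3 in wild type, 86.5 in NUP98-HOXD13, 89.8 in Flt3-ITD and 68.6 in NUP98-HOXD13/Flt3-ITD. Each single mutant was higher there than the double mutant, so the order of set 1 did not recur. The fold enrichment was 7.07 to 7.31 in both wild types and Runx1-het, 10.1 to 12.0 in Flt3-ITD of both sets, NUP98-HOXD13 and Flt3-ITD/Runx1-het, and lower, at 5.96, in NUP98-HOXD13/Flt3-ITD. For that double mutant the measures disagreed, since its fold was below wild type of set 2 and its percentile above.

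Kmt2d had the widest range of all, 43.9 points. Its promoter region, chr15:98871285-98872690, begins just upstream of the listed start, so it covers only the upstream part of the sequence printed above. The −log10 p was 56.4 in wild type, 60.4 in Flt3-ITD and 58.3 in Runx1-het of set 1, and 122 in Flt3-ITD/Runx1-het. In set 2 it was 56.5 in wild type, 84.9 in NUP98-HOXD13, 12.3 in Flt3-ITD and 91.1 in NUP98-HOXD13/Flt3-ITD. The equal-number percentile was 53.9, 50.3, 48.9 and 75.7 in that order in set 1, and 34.6, 72.2, 39.4 and 73.0 in set 2. Flt3-ITD/Runx1-het and both lists with the fusion gene stood above the other 5.

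Nsd1 ranged over 15.6 points, with equal-number percentiles of 69.5, 63.4, 62.5 and 80.9 in wild type, Flt3-ITD, Runx1-het and the double mutant of set 1, and 72.1, 84.1, 79.1 and 86.0 in wild type, NUP98-HOXD13, Flt3-ITD and the double mutant of set 2. As for Kmt2d, the double mutant had the highest percentile of each set, but in set 2 the highest fold enrichment was that of NUP98-HOXD13 for both genes (8.96 for Kmt2d, 9.65 for Nsd1). Kmt2c had 9 regions of which only the promoter was in all lists, and its other 8 were all inside the gene, 5 of them in a single list. Setd2 had a strong promoter (96.1 to 98.7 percentile) and 8 regions, 2 of which followed a mutation. In set 1, chr9:110617159-110617429 was in Runx1-het (14.5) and the double mutant (19.5) only, and in set 2 in NUP98-HOXD13 (7.0). The other, chr9:110624132-110624806 beside the start of Nradd, was in wild type (18.7) and Flt3-ITD (10.7) of set 2 and in neither list with the fusion gene, while 3 lists of set 1 held it (25.5 to 28.4).

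**Figure D3:**
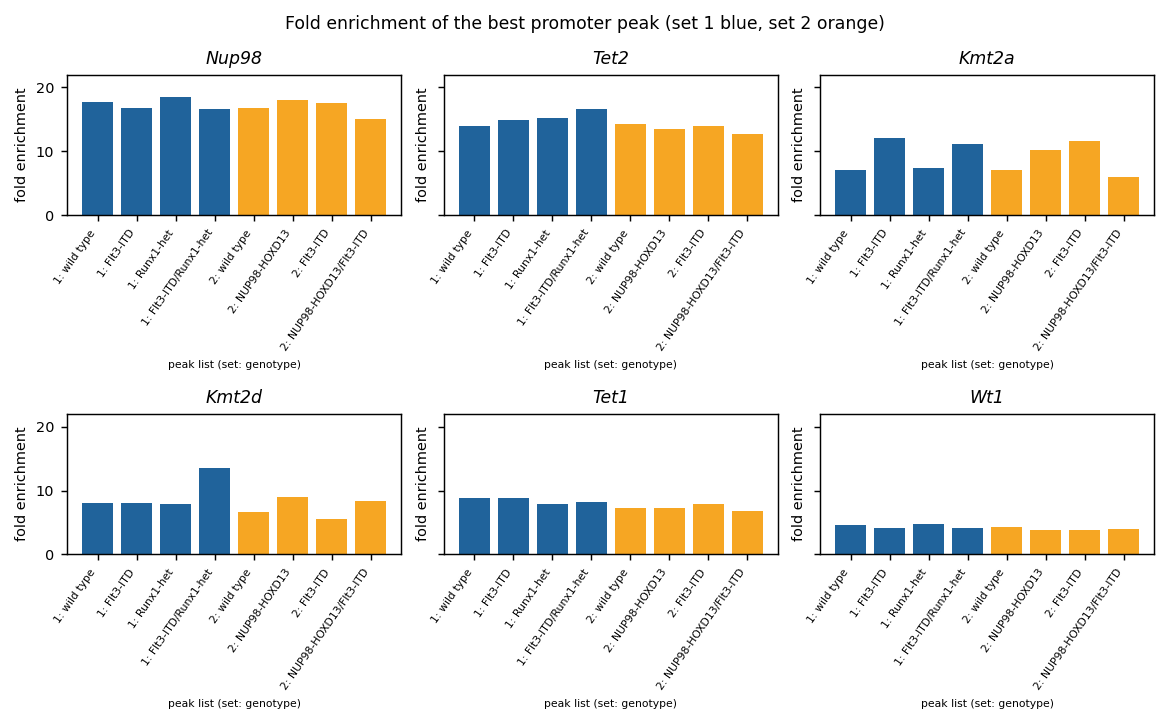
Fold enrichment (linear, from 0) of the best promoter peak in each peak list for Nup98, Tet2, Kmt2a, Kmt2d, Tet1 and Wt1, genes chosen after their values were seen; bars are single pooled lists without error bars, set 1 in blue and set 2 in orange. Nup98 stays between 15.03 and 18.5, whereas Kmt2a ranges from 5.96 to 12.0.

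Dot1l, a gene on which leukaemias with rearranged Kmt2a depend, had 14 regions, 8 of them in all lists. Its locus held 1 of the 2 strong losses at these genes. A strong region is one whose best peak is in the top 25% of its list, and a strong loss is such a region of the wild-type list with no peak in the mutant list of the same set. The region, chr10:80757642-80758096, lies inside Dot1l, 2665 bp past its start, and was missing only from set 2 Flt3-ITD. Its −log10 p was 64.7, 86.8, 78.4 and 94.8 in wild type, Flt3-ITD, Runx1-het and the double mutant of set 1, and 138, 62.6 and 63.1 in wild type, NUP98-HOXD13 and NUP98-HOXD13/Flt3-ITD of set 2. The other 3 lists with Flt3-ITD thus held it. The other strong loss was at the Setd2 locus in NUP98-HOXD13, chr9:110624863-110625492, beside the start of Nradd. It had 80.6, 63.5, 91.0 and 53.8 in the same order in set 1, 163 in wild type of set 2, 13.8 in Flt3-ITD and 22.4 in NUP98-HOXD13/Flt3-ITD. Over all union regions, 0.899% were strong losses in set 2 Flt3-ITD and 0.275% in NUP98-HOXD13. In the other 4 mutants 0 of 273 regions were strong losses, against 0.414% of all regions in NUP98-HOXD13/Flt3-ITD, 0.00983% in set 1 Flt3-ITD, 0.00328% in Runx1-het and 0.0262% in Flt3-ITD/Runx1-het. No strong gain occurred at these loci in any of the 6 mutants (0 of 273 each, which allows up to 1.34% by the exact interval). Over all regions, strong gains were 0.111% in set 1 Flt3-ITD, 0.068% in Runx1-het, 0.155% in Flt3-ITD/Runx1-het, 0.0787% in NUP98-HOXD13, 0.0156% in set 2 Flt3-ITD and 0.0779% in NUP98-HOXD13/Flt3-ITD. With equal numbers of peaks neither strong loss was called.

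**Figure D4:**
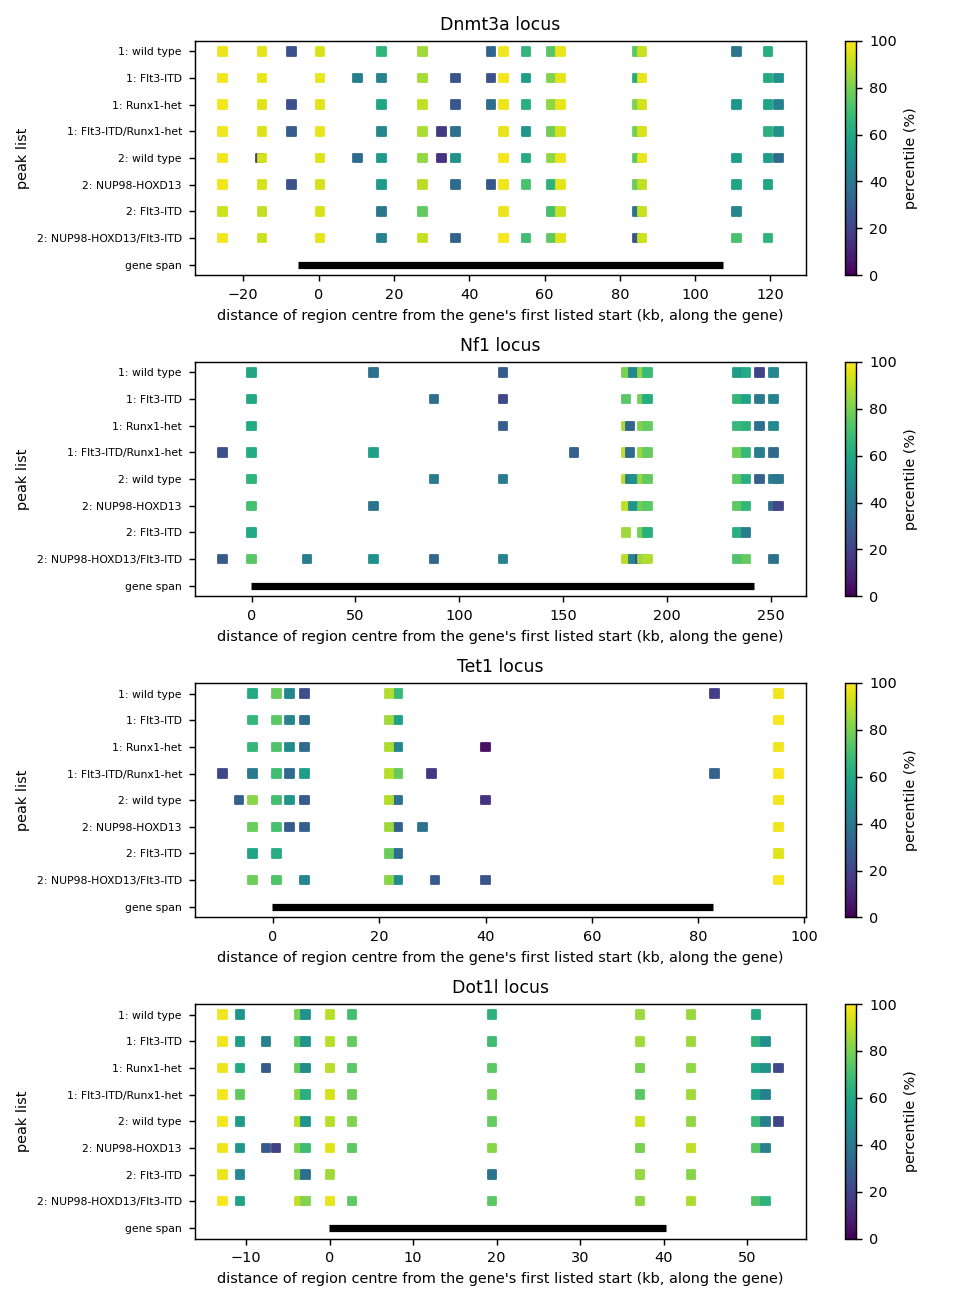
Regions at the Dnmt3a, Nf1, Tet1 and Dot1l loci, chosen after seeing the data, in each of the 8 lists (rows); the x axis is the distance of the region centre from the gene's first listed start in kb along the gene, the black bar is the gene span, and the colour is the percentile of the best peak within its list. Columns of yellow and green squares run through all 8 rows, and most gaps are in columns of dark squares.

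The acetyltransferases Crebbp and Ep300, paralogous coactivators that acetylate histones, held 14 regions, 6 of them in all lists (42.9%, against 34.1% of all union regions). Their promoters were open in every list at 81.9 to 94.6 (Crebbp) and 82.2 to 95.7 (Ep300). A small second promoter region of Crebbp, chr16:4212261-4212523, was found only in wild type (31.9) and NUP98-HOXD13 (13.5) of set 2. Ep300 had an intragenic region, chr15:81594244-81594554, in Flt3-ITD (16.9) and the double mutant (21.5) of set 1 and in neither other list of that set. In set 2 it was in wild type (15.7), NUP98-HOXD13 (20.1) and the double mutant (23.1), so the link with Flt3-ITD in set 1 was absent in set 2.

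Cohesin, the ring that holds chromatin loops, is represented by Smc3 and Rad21, and Ctcf is the factor at which those loops stop. Of their 17 regions 9 were in all lists (52.9%, against 34.1% of all union regions). The Ctcf locus had 5 of 7 in all lists, including regions upstream of the start (68.9 to 526) and inside a neighbouring gene (68.2 to 587), where the Ctcf promoter had 45.0 to 228; the former was stronger than the promoter in all 8 lists and the latter in 7. A Ctcf flank region, chr8:105617548-105618050, was the only region at the 35 genes present in both Flt3-ITD lists of set 2 and in neither other list of that set (9.1 and 11.3), and it was also in wild type of set 1 (13.1). Smc3 had 6 regions with 2 in all lists, and a promoter at the 92.2 to 98.2 percentile. A small region inside Rad21, chr15:51990519-51990799, was in wild type (25.5) and NUP98-HOXD13 (8.1) of set 2, and in Runx1-het of set 1 (14.3).

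The signalling genes act between receptors such as Flt3 and the nucleus: Nras is a growth signal switch, Ptpn11 a phosphatase that helps activate it, Nf1 the brake that turns it off, Cbl a ubiquitin ligase that removes active receptors, and Jak2 a kinase of cytokine receptors. Of their 48 regions, 17 were in all lists (35.4%, against 34.1% of all union regions). A mutation was followed by 7 of the 48, and by 16.5% of all union regions. Nras had a single region, its promoter, in all lists (86.3 to 93.1 percentile). Ptpn11 had a promoter range of 20.1 points. Its −log10 p was 93.6, 90.8, 101 and 120 in wild type, Flt3-ITD, Runx1-het and the double mutant of set 1, and 144, 119, 28.0 and 160 in wild type, NUP98-HOXD13, Flt3-ITD and the double mutant of set 2. With equal numbers the percentile ran from 66.0 (set 1 Flt3-ITD) to 85.8 (NUP98-HOXD13/Flt3-ITD). Each double mutant again had the highest percentile of its set, while the highest fold enrichment in set 2 was that of NUP98-HOXD13 (16.8). That order of percentiles was not particular to Kmt2d, Nsd1 and Ptpn11. Suz12, Cbl, Crebbp and Dot1l, among others, also had it in both sets, and its share over all genes was not counted.

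Nf1, the longest locus here with a span of 242020 bp, had 18 regions with 6 in all lists, and a weak promoter (58.6 to 73.7 percentile, fold enrichment 8.74 to 11.2). Its intragenic region chr11:79519838-79520375 was stronger than the promoter in every list, at 49.6 to 238. The Nf1 span also holds the genes Evi2 and Evi2b, inside whose spans 1 of the 3 regions that followed a mutation lay: chr11:79522040-79522283 was in Runx1-het (18.4) and the double mutant (21.1) of set 1, in neither other list of that set, and in wild type of set 2 (30.2). The second, chr11:79398368-79398821, was in NUP98-HOXD13 (16.7) and NUP98-HOXD13/Flt3-ITD (25.9) and in neither other list of set 2. The third, chr11:79593562-79593821 inside Rab11fip4, was in wild type (26.8) and NUP98-HOXD13 (8.3) and in neither Flt3-ITD list of set 2.

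Cbl had 12 regions with 5 in all lists. A second Cbl promoter region, chr9:44234868-44235182, was in 6 lists at 25.1 to 40.4 and missing from Flt3-ITD of both sets, but both double mutants, which also carry Flt3-ITD, held it. Around Cbl, chr9:44134047-44135718 at the start of Mcam was in Runx1-het (30.5) and the double mutant (24.3) of set 1 and in neither other list of the set, and in 3 lists of set 2. The region chr9:44125956-44126343 was in wild type (24.3) and NUP98-HOXD13 (21.7) of set 2 and in neither Flt3-ITD list of that set, while Flt3-ITD of set 1 held it (13.9). Jak2 had 10 regions, 2 of them in all lists and 5 in 1 list only, and a promoter at the 87.9 to 94.5 percentile.

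Of the transcription factors, Wt1 is a zinc finger factor of kidney and gonad that is often raised in leukaemia, and Trp53 is the DNA damage factor p53. Wt1 had the weakest promoter of the 33 genes. Its −log10 p was 24.3, 19.6, 28.5 and 15.9 in wild type, Flt3-ITD, Runx1-het and the double mutant of set 1, and 26.4, 14.5, 5.99 and 16.5 in wild type, NUP98-HOXD13, Flt3-ITD and the double mutant of set 2. Each list held it in its lower 50%, and with equal numbers only 5 of the 8 lists did. The strongest Wt1 region lay beyond the gene, chr2:105184838-105185745, at 42.4 to 225 in all lists.

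Trp53 had 10 regions, 3 of them promoter regions in all lists and all within reach of the Wrap53 start. The strongest of the 3 was the upstream one, chr11:69578846-69579678, in all 4 lists of set 1 (76.6 to 141) and in NUP98-HOXD13 (99.8). In the other 3 lists of set 2 it was the downstream one, chr11:69581129-69581693, with 180 in wild type, 26.9 in Flt3-ITD and 112 in NUP98-HOXD13/Flt3-ITD. A flank region of Trp53 inside Wrap53, chr11:69575296-69575521, was the only region at these loci that, in both sets, was present in both lists without Flt3-ITD and in neither list with it. It was in wild type (10.5) and Runx1-het (20.7) of set 1 and in wild type (19.5) and NUP98-HOXD13 (26.1) of set 2. It never exceeded the 51.8 percentile.

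Npm1, a nucleolar chaperone, is often mutated together with FLT3-ITD in human disease, and Nup98 is the pore protein whose gene contributes the first part of NUP98-HOXD13. Nup98 had the highest median percentile of all 33 promoters, 99.3, and its fold enrichment ranged from 15.03 to 18.5. The 2 lists with the fusion gene gave 18.1 (NUP98-HOXD13) and 15.03 (NUP98-HOXD13/Flt3-ITD), and wild type of the same set 16.8. Npm1 had 5 regions with 3 in all lists and a promoter at the 92.4 to 97.2 percentile. Downstream or upstream of the Npm1 span (its strand is not in the table), chr11:33170367-33170877 was missing only from Flt3-ITD and the double mutant of set 2. The 4 lists of set 1 held it at 60.2 to 65.9, those with Flt3-ITD included, and set 2 held it at 80.3 in wild type and 25.6 in NUP98-HOXD13. It was among the strongest of the regions that followed a mutation, with a best percentile of 69.4.

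The splicing factors Srsf2, Sf3b1 and U2af1, which choose exons and branch points or splice sites, and the RNA helicase Ddx41 had 21 regions. Of these, 11 were in all lists (52.4%, against 34.1% of all union regions). All 3 regions at U2af1 were in every list. The promoters lay between the 79.3 (Ddx41, set 2 Flt3-ITD) and 96.7 percentile (Sf3b1, NUP98-HOXD13). Sf3b1 had 2 neighbouring flank regions that followed a mutation: chr1:54983184-54983647 was in Runx1-het (20.7) and the double mutant (11.2) of set 1 and chr1:54982684-54983115 in wild type (33.5) and NUP98-HOXD13 (23.8) of set 2. Of the 8 regions at Ddx41, which lies among other genes, chr13:55519446-55520026 was in Flt3-ITD (14.2) and the double mutant (32.3) of set 1. The Ddx41 flank region chr13:55517000-55517274 was in wild type (12.1) and Flt3-ITD (10.6) of set 1 and in wild type (19.7) and NUP98-HOXD13 (17.4) of set 2. It was thus absent with Runx1-het in set 1 and absent with Flt3-ITD in set 2.

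Each mutant was then compared with wild type of its set. A gained region had a peak in the mutant list and none in wild type, and a lost region the reverse; the 3 comparisons of a set share its wild-type list. In set 1, Flt3-ITD gained 30 of the 273 regions (11.0%, against 13.6% of all union regions) and lost 20 (7.33% against 7.35%). Runx1-het gained 43 (15.8% against 15%) and lost 20 (7.33% against 6.31%), and Flt3-ITD/Runx1-het gained 41 (15.02% against 15.6%) and lost 17 (6.23% against 7.94%). Gains outnumbered losses in all 3, at these loci as over all regions, and the wild-type list was the shortest of the set. In set 2, NUP98-HOXD13 gained 22 (8.06% against 8.85%) and lost 41 (15.02% against 17.3%), Flt3-ITD gained 4 (1.47% against 3.29%) and lost 73 (26.7% against 28.7%), and NUP98-HOXD13/Flt3-ITD gained 17 (6.23% against 8.09%) and lost 37 (13.6% against 18.8%). There losses outnumbered gains, and the wild-type list was the longest of the set. The interval of the share at these loci held the share of all regions in each comparison except the losses of NUP98-HOXD13/Flt3-ITD (9.73% to 18.2%), and that interval does hold the 17.1% lost among regions within 20 kb of a protein-coding gene.

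Lists of equal genotype also differed. Of the 273 regions, 48 were in wild type of set 2 and not of set 1 (17.6%, against 18.9% of all union regions), and 14 the reverse (5.13% against 5.63%). For Flt3-ITD, 52 were in the list of set 1 and not of set 2 (19.05% against 22.9%), and 7 the reverse (2.56% against 4.40%). These shares lay near or below those of all regions. With wild type of the other set as the reference, gains no longer outnumbered losses in any mutant of set 1 (5.86% gained and 14.7% lost in Flt3-ITD), and losses no longer outnumbered gains in NUP98-HOXD13 (13.9% gained and 8.42% lost) or NUP98-HOXD13/Flt3-ITD (13.6% and 8.42%).

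**Figure D5:**
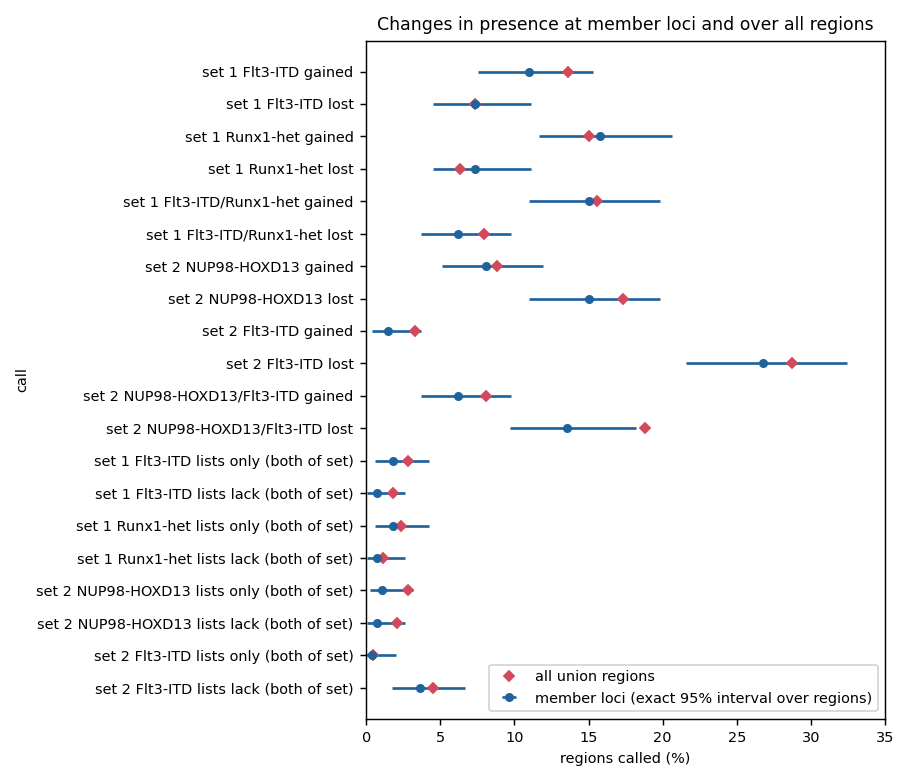
Share of regions gained, lost or following a mutation (x axis, in %) at the loci of the 35 genes (blue points with exact 95% intervals over regions) and over all union regions (red diamonds). The intervals hold the red diamond in all rows except the losses in set 2 NUP98-HOXD13/Flt3-ITD, where 13.6% compares with 18.8% of all regions and 17.1% of those near genes.

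A region followed a mutation if it was present in both lists of a set with that mutation and in neither without it, or the reverse. This was so for 28 of the 273 regions (10.3%), at 19 genes, where 16.5% of all union regions did so. A region in all 8 lists cannot follow a mutation, and 43.2% of these regions against 34.1% of all were in all 8. No interval was computed for the 10.3%, and no deficit is read from it. By mutation, 5 of the 28 were present with Flt3-ITD in set 1 (2.79% of all regions showed this pattern) and 2 absent with it (1.78%). With Runx1-het 5 were present (2.38%) and 2 absent (1.15%), and with NUP98-HOXD13 3 were present (2.8%) and 2 absent (2.07%). In set 2, 1 was present with Flt3-ITD (0.452%) and 10 were absent with it (4.5%). The absences include those of the short Flt3-ITD list. The split of the same lists that follows no mutation, wild type and double mutant against the single mutants, gave 8 present in wild type and the double mutant (2.93%, interval 1.27% to 5.69%, against 0.997%) and 3 absent (2.26%) in set 1, and 13 (3.48%) and 0 (0.36%) in set 2. Of the 28 regions, 2 were at promoters, 9 inside the gene, 12 between genes, and 20 stayed under the 50th percentile in every list, with the highest at 71.2. Asxl1 and Nf1 had 3 such regions each, and Tet2, Setd2, Cbl, Sf3b1 and Ddx41 had 2. Under this definition, which uses all 4 lists of a set, 1 region was absent with Flt3-ITD in both sets (the Trp53 flank, 0.192% of all regions) and 0 were present with it in both (0.0582%). No region was present with it in set 1 and absent in set 2 (0.142% of all), or the reverse (0.00983%). Counted from the Flt3-ITD and wild-type lists alone, 8 of the 273 regions were lost in both sets (2.93%, against 3.24% of all), the Cbl promoter region above among them, and 0 were gained in both (0.756%). A further 16 were gained in set 1 and lost in set 2 (5.86% against 5.19%), such as the Tet2 promoter edge and the Ep300 intragenic region, and 1, the Ctcf flank, was lost in set 1 and gained in set 2 (0.366% against 0.282%).

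Promoter strength was also set side by side, a comparison chosen after the data were seen. It is given by percentile with equal numbers of peaks and then by fold enrichment, and in set 2 these went opposite ways. In set 1 the percentile was higher than in wild type for 10 of 32 genes in Flt3-ITD (41.4% of all genes), 12 of 33 in Runx1-het (47.2%) and 24 of 32 in Flt3-ITD/Runx1-het (52.6%). In set 2 it was higher for 29 of 32 in NUP98-HOXD13 (66.9%), 21 of 32 in Flt3-ITD (48.7%) and 25 of 32 in NUP98-HOXD13/Flt3-ITD (66.1%). The median difference from wild type was 2.70 points in Flt3-ITD/Runx1-het, 3.29 in NUP98-HOXD13 and 4.18 in the double mutant of set 2, against 0.11, 1.21 and 1.42 over all genes, and between -0.79 and 0.64 in the other 3 mutants. By fold enrichment, the promoter was higher than in wild type of set 1 for 18 of 33 genes in Flt3-ITD (55.2% of all genes), 20 in Runx1-het (57.8%) and 27 in Flt3-ITD/Runx1-het (74.5%). In set 2 it was higher for only 10 of 33 in NUP98-HOXD13 (21.5%), 5 in Flt3-ITD (12.5%) and 5 in NUP98-HOXD13/Flt3-ITD (9.73%). Most promoters of these genes thus ranked higher in the 2 lists with the fusion gene than in wild type of set 2 while their fold enrichment was lower there, as over all genes. Setd2, for example, had a fold enrichment of 21.8 in wild type of set 2, 20.7 in NUP98-HOXD13 and 18.6 in the double mutant. Its percentiles were 96.2, 97.5 and 98.0 in that order. Dnmt3a did not rank higher: its fold enrichment was 18.5, 11.5 and 12.9, and its percentile 94.9, 90.6 and 94.1. By percentile, the largest rise within a comparison was that of Kmt2d in NUP98-HOXD13 (37.6 points), NUP98-HOXD13/Flt3-ITD (38.4) and the double mutant of set 1 (21.8), and that of Kmt2a in Flt3-ITD of set 1 (22.4) and set 2 (31.6). Wild type of set 2 was higher than wild type of set 1 for 10 of 32 genes (38.2% of all), with a median difference of -1.15 points.

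A wider list of 28 other genes mutated in myeloid neoplasms, all matched, held 387 regions. Of these, 141 (36.4%) were in all 8 lists, where 34.1% of all union regions and 36.7% of those near genes were. Of the 28 genes 26 had a promoter region in every list, where 59.4% of protein-coding genes with a listed start did. The exceptions were the Polycomb corepressors Bcor, whose promoter was missing from set 1 wild type, and Bcorl1, missing from set 2 Flt3-ITD and the double mutant. A mutation was followed by 54 regions (14.0%, against 16.5% of all union regions), and 15 of these were among the 54 regions of Etv6, an ETS factor of blood stem cells. Flt3 itself had its promoter at a median percentile of 99.5 with 17 regions, 1 of which followed a mutation, and Runx1 at 81.2 with 24 regions, 2 of which did.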

How the data were processed

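The members and gene lists were chosen with earlier results of these data known. Peak lists came from 16 ATAC-seq samples in 8 groups of 2 samples, grouped by titles and genotype labels, with 1 pooled list per group. The submitters' processing notes name Bowtie2 and MACS2 without versions, and the builds mm10 and GRCm38. For thresholds, read shifting and filters, nothing is stated (not given in the sources used here). Read shifting sets the exact edges of a peak, and a threshold sets which weak peaks are listed, so presence of a weak region depends on both. The values deposited by the authors per peak are a fold enrichment (a ratio), −log10 p, −log10 q and a score; the score was not used. No read count was used, so depth, and with it the precision of each value, is unknown. There were 0 columns of unmapped samples.

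Peaks on chromosomes 1 to 19, X and Y were merged if they overlapped by 1 bp into union regions. Genes, spans and starts were those of RefSeq GRCm38.p6, and no genome sequence was given, so exons and introns were not told apart and only promoter sequences were read. All 35 members were described. Picked for closer description were members without a promoter region in all lists and the 8 with most regions following a mutation (ties by total regions). Also picked were the 6 with the widest promoter percentile range, the 4 highest and 4 lowest medians, and strong gains and losses. Promoter values of these members are given per list or as a range over the lists. Sequences of the 2 highest, the 2 lowest and the 2 widest were planned and were restricted after seeing the data to genes with a listed start. The motifs were also chosen then. Presence calls and best values were tested on simulated data and recovered as simulated. The tools were Python 3.11.15, numpy 2.4.6, pandas 2.3.3, scipy 1.17.1 and matplotlib 3.10.9. Alternatives were a 5 kb flank, equal numbers of peaks, −log10 q of at least 5, covering 50% of a region, a promoter window of 250 bp, wild type of the other set, and 7 lists without set 2 Flt3-ITD (added after seeing the data).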

Additional observations from a re-analysis of the deposited data

How the results depend on the processing

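The limits are those of peak presence in pooled lists: a region absent from a list may have fallen just under an unknown threshold, and the causes of the differences below were not tested. No paired analysis was possible because each group had 1 pooled list, and leaving out a replicate could not be run for the same reason. The share of regions in all 8 lists was 43.2% (34.1% of all regions) and became 54.3% with equal numbers of peaks (41.4% of all) and 34.1% when a list had to cover 50% of the region (26.7% of all). With wild type of the other set as the reference, gains and losses were 5.86% and 14.7% in set 1 Flt3-ITD, 8.06% and 12.1% in Runx1-het, 11.0% and 14.7% in the double mutant of set 1, 13.9% and 8.42% in NUP98-HOXD13 and 13.6% and 8.42% in NUP98-HOXD13/Flt3-ITD, and losses were 15.02% in set 2 Flt3-ITD. With equal numbers of peaks, gains were 10.1% in Flt3-ITD/Runx1-het (12.4% of all) and 7.21% in Runx1-het (9.68%), and losses 8.65% in NUP98-HOXD13 (11.7%), 16.8% in set 2 Flt3-ITD (18.8%) and 7.21% in NUP98-HOXD13/Flt3-ITD (12.7%). The share absent with Flt3-ITD in set 2 became 1.44% (2.73%), and the median promoter percentile 88.4. With a flank of 5 kb the share was 0% for regions absent with Runx1-het, absent with NUP98-HOXD13, or present with Flt3-ITD in set 2. The stricter −log10 q (22 values), the 250 bp promoter window and the 7 lists moved none of the values they were applied to by more than the limits set. Of 33 single promoter medians, 22 moved with equal numbers of peaks and 11 did not.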
